A study of Rattus norvegicus with 34 samples.

Results

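EMD 82571 in the maternal liver on gestational day 20 was followed on 4 of the 34 arrays of the series. The 4 were chosen by their source labels, which name maternal liver, day 20 and a dose: 2 arrays carry RNA after 50 mg and 2 after 150 mg of EMD 82571, given daily per kg of body weight. EMD 82571 is named a calcium sensitizer in the title of the series, and the series follows it and retinoic acid in pregnant Wistar rats and their embryos on days 12 and 20. Each array is a PIQOR cDNA array with 2 colours, on which RNA from treated animals (Cy5) and RNA labelled vehicle (Cy3) from the same tissue were hybridised together. The vehicle was given no composition in the labels, its channel carries no day, and the animals' age is not stated. Dosing ran over gestational days 6 to 11 or 6 to 17 per the protocol text, which does not tie these windows to the groups used here.

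The liver clears foreign compounds and hormones with cytochrome P450 enzymes, which oxidise them, and with transferases such as the UGT family, which add a sugar and so make them ready for bile or urine. Many of these genes answer to nuclear receptors: CAR and PXR switch on CYP2B and CYP3A genes in the presence of many drugs, PPAR alpha controls fatty acid oxidation and Cyp4a genes, and these receptors, like those of retinoic acid, bind DNA together with RXR. Hepatocytes also make bile acids and plasma proteins, and in pregnancy the mother's liver adapts its metabolism and its size.

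Each ratio compares treated with vehicle RNA on the same array, so the vehicle counts as a single control sample per array and its own spread is left out of every test against vehicle. Dyes were never swapped, so a dye effect of a gene is part of each of its ratios. Whether the 2 arrays of a dose stand for separate animals, pools or repeats of the same RNA is not stated. Nor is it stated whether the doses shared vehicle RNA. The p-values thus rest on a spread between arrays that may be technical. Each gene's spread was estimated jointly over all 15 groups of the series, embryo, embryo liver and embryo bone included. A gene with close values on the arrays of a dose can therefore miss the threshold. With only the arrays of the dose in the fit, limma called 105 genes at 50 mg and 82 at 150 mg. The design text counts 5 control and 5 treated replicates, a number that does not match the 2 arrays of each dose. The 4 arrays held 239 gene probes in 4 spots each, with 878 to 934 unmarked gene spots per array and ratios for 235 to 238 probes. The spot signal was 2.14 to 2.41 times its background for vehicle and 1.83 to 2.31 times for treated RNA. Log2 ratios of all genes correlated with r = 0.868 between the arrays of 50 mg, r = 0.856 between those of 150 mg and r from 0.546 to 0.572 between doses, a description across genes, which are not independent replicates.

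At 50 mg, the limma test (adjusted p under 0.05) called 24 of 238 genes (10.1%), 9 higher than vehicle (3.78%) and 15 lower (6.3%). At 150 mg it called 19 of 239 genes (7.95%), 6 higher (2.51%) and 13 lower (5.44%). Called at both doses were 10 genes, which is 41.7% of the 50 mg calls and 52.6% of the 150 mg calls, with 2 higher and 8 lower at each dose. The 2 higher were Actb and Egfr, and the 8 lower were Cyp17a1, Cyp3a9, Cyp4a1, Bmp7, Hgf, Serpina1, Gadd45a and Fen1. These doses may share vehicle RNA, so the overlap is given as a count alone. Most differences were small: the median size of a log2 ratio was 0.0668 at 50 mg and 0.0693 at 150 mg, and the median over all genes was -0.0009 and 0.00192. The arrays of the doses did not overlap for 137 of the 233 genes measured on all 4 (58.8%), with 150 mg above for 66 (28.3%) and below for 71 (30.5%), so separation of the arrays alone is common here.

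Several alternatives ended calls. A random block for the date in the file headers kept 6 calls at 50 mg (Actb, Cyp17a1, Bmp7, Cyp7a1, Tgfb1 and Pdgfa) and 6 at 150 mg (Ugt2b, Cyp3a9, CYP2B1/2, Cyp3a18, Cyp4a1 and Cyp17a1). From the deposited log2 ratios, 0 genes passed limma's adjusted threshold at 50 mg (23 at an unadjusted p under 0.05) and 6 at 150 mg, of which 5 were shared with the 19: Ugt2b, Cyp3a9, CYP2B1/2, Cyp4a1 and Cyp3a23-3a1. Median centring in place of loess gave 16 higher and 8 lower calls at 50 mg. With the mean of each gene over the other groups subtracted, a setting that takes out a dye effect common to the arrays along with part of any common response, 19 of 24 calls were kept at 50 mg and 8 of 17 with a value at 150 mg. That setting lost Cyp4a1 at both doses, and Cyp17a1 and Cyp3a23-3a1 at 150 mg. The plot of called genes shows every call with its arrays.

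**Figure D1:**
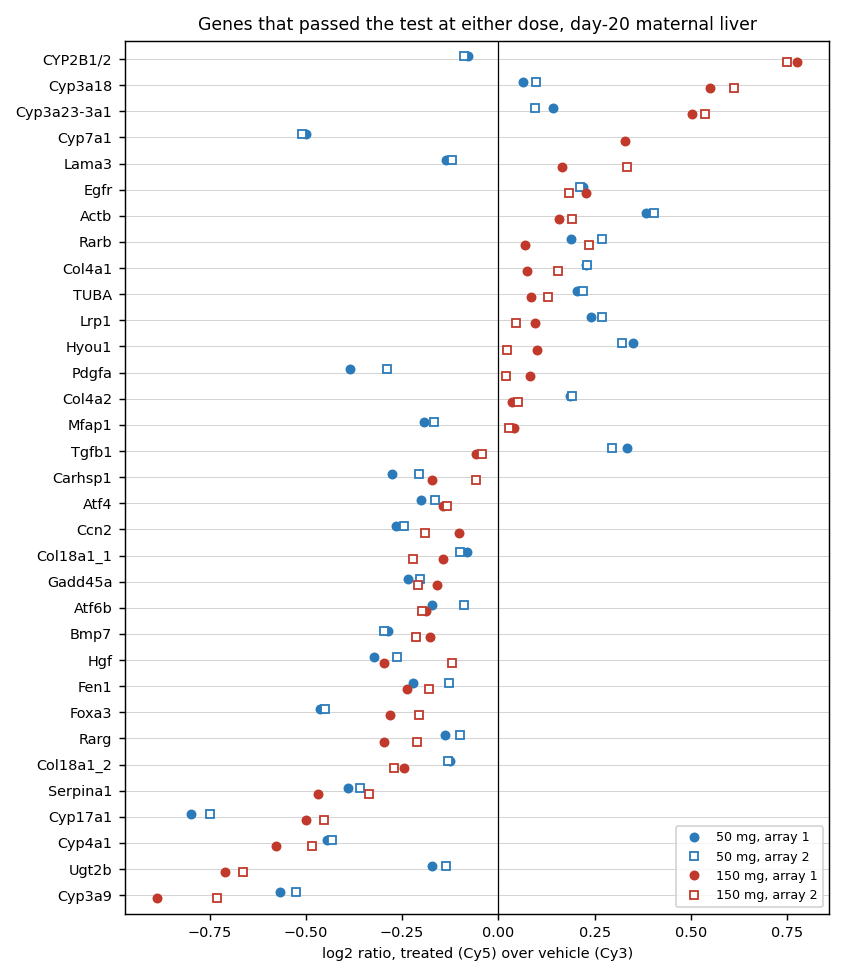
Log2 ratio of treated over vehicle (horizontal axis) for every gene called in either dose, with a point for each array and a colour for each dose; the vertical line marks 0. Cyp17a1, Cyp3a9 and Cyp4a1 lie left of the line on all 4 arrays, while CYP2B1/2 lies at -0.08 and -0.09 at 50 mg and at 0.78 and 0.75 at 150 mg.

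Among 8 measured P450 genes known as targets of CAR and PXR, 3 were called higher and 1 lower at 150 mg, and 0 higher and 1 lower at 50 mg. Over all genes, 10.1% were called at 50 mg (3.78% higher, 6.3% lower) and 7.95% at 150 mg (2.51% higher, 5.44% lower). Counts for this list and those below are to be read beside these shares, and no list was tested as a set. Their median log2 ratio was 0.03 at 50 mg and 0.27 at 150 mg, beside medians near 0 over all genes. The CYP2B1/2 probe, which stands for 2 near-identical phenobarbital-inducible P450 genes that it cannot tell apart, gave log2 ratios of -0.08 and -0.09 on the 50 mg arrays and 0.78 and 0.75 on the 150 mg arrays. Its normalized intensity was 206, 223, 185 and 162 in the vehicle channel of those 4 arrays and 195, 210, 317 and 272 in the treated channel, dim values that include an offset of 50. Both arrays of 150 mg stood above both arrays of 50 mg, whose ratios lay near 0. The same order held for 28.3% of the genes measured on all 4 arrays. CYP2B1/2 rose 1.70-fold at 150 mg (log2 0.76, SE 0.123, adjusted p 0.00057), a call that held without either 150 mg array (adjusted p 0.0373 and 0.0289).

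Cyp3a23-3a1 and Cyp3a18, drug- and steroid-metabolising enzymes of the CYP3A subfamily, were also higher at the high dose. Cyp3a23-3a1 gave log2 ratios of 0.14 and 0.10 at 50 mg and of 0.50 and 0.54 at 150 mg, from 2, 3, 4 and 1 usable spots. Cyp3a18 gave 0.06 and 0.10 at 50 mg and 0.55 and 0.61 at 150 mg. In both genes the 150 mg arrays lay above the 50 mg arrays, as in 28.3% of the genes measured on all 4. The test between doses, given below, called neither gene. Cyp3a23-3a1 rose 1.43-fold at 150 mg (log2 0.52, SE 0.108, adjusted p 0.00295), a call lost without array 1 or array 2 of that dose (adjusted p 0.0803 and 0.107) and with the header date as a block (adjusted p 0.124). Cyp3a18 rose 1.49-fold (log2 0.58, SE 0.0951, adjusted p 0.00065), a call lost without 150 mg array 2 (adjusted p 0.0521).

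Cyp3a9, a CYP3A enzyme that in rats is also found outside the liver, went the other way. Its log2 ratios were -0.57 and -0.53 at 50 mg and -0.89 and -0.73 at 150 mg, with treated intensities of 2782, 2738, 2081 and 2014 against vehicle intensities of 4121, 3944, 3847 and 3342. All 4 arrays were below vehicle. Those of 150 mg lay below those of 50 mg, as in 30.5% of the genes measured on all 4, and the test between doses did not call Cyp3a9. The mean log2 ratio of this gene was also below 0 in 10 of the 13 other groups. In day-20 maternal liver with retinoic acid it was -0.704. Cyp3a9 fell by 0.55 (SE 0.101, adjusted p 0.00126) at 50 mg and by 0.81 (SE 0.101, adjusted p 1.29e-05) at 150 mg, the latter a 1.75-fold difference that held without either array. The 50 mg call was lost without 50 mg array 1 (adjusted p 0.0779) and with the header date as a block (0.0668). Cyp3a2, a CYP3A gene typical of male rats, stayed close to vehicle in intensities of 71 to 88, near the offset, with log2 ratios from -0.09 to 0.01.

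The promoters of the 3 CYP3A genes that moved are shown because they belong to genes of the same subfamily and chromosome that differ in direction. Each run holds the 250 bases before the gene start, from RefSeq on build GRCr8, 5′ to 3′ on the gene's strand, and capitals mark TGAACT or the same letters read on the other strand, AGTTCA. They lie at chr12:14398804-14399053 (minus strand, Cyp3a23-3a1), chr12:13994062-13994311 (plus strand, Cyp3a18) and chr12:21960161-21960410 (minus strand, Cyp3a9).
Cyp3a23-3a1: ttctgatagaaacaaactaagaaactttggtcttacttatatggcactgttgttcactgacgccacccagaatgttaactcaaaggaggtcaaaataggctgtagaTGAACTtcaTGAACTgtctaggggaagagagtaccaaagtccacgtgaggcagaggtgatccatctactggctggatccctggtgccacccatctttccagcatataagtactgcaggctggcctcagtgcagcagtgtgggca
Cyp3a18: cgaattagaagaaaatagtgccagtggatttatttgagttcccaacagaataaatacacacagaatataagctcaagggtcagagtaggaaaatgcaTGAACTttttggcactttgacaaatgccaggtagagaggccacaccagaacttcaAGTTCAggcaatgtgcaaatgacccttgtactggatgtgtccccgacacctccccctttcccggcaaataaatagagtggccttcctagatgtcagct
Cyp3a9: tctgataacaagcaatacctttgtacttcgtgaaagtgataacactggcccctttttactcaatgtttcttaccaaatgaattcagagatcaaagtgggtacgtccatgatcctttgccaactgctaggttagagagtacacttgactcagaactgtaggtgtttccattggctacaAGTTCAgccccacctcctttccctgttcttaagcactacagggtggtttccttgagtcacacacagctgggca
This hexamer is the sequence that nuclear receptor pairs such as PXR with RXR bind in repeats. In Cyp3a23-3a1 copies start 144 and 135 bases before the gene start and form a direct repeat with 3 bases between (TGAACTNNNTGAACT), in Cyp3a18 they lie 153 and 98 bases before the start, and in Cyp3a9 a copy lies 73 bases before it. The hexamer was found on either strand in 4088 of 33465 promoters of this length (12.2%), and the direct repeat in 2 (0.00598%), those of Cyp3a23-3a1 and Cyp3a2. Windows of Cyp2b1, Cyp2b2 and Ugt2b held no such hexamer. A match describes letters in this window and was not tested as a binding site.

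The other measured CAR and PXR targets did not pass the test. Cyp2c6v1, a constitutive CYP2C enzyme, gave 0.17 and 0.11 at 50 mg and 0.31 and 0.34 at 150 mg (adjusted p 0.0705 at 150 mg). Cyp2c7, which is regulated by growth hormone and retinoids in rats, gave 0.07 and 0.08 and then 0.21 and 0.22 (adjusted p 0.931). CYP2A1/2, a probe for 2 testosterone hydroxylases, gave -0.21 and -0.17 at 50 mg and -0.07 and 0.09 at 150 mg.

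Of 9 other P450 and flavin oxidase probes, 0 were called by limma at either dose (1 at each at an unadjusted p under 0.05), with median log2 ratios of 0.02 and 0.11. They ranged from -0.08 (Cyp1a1, the dioxin-inducible P450) to 0.18 (Cyp2c12, a female-specific CYP2C enzyme) at 50 mg, and from -0.01 (Cyp2e1, the ethanol-oxidising P450) to 0.29 (Cyp2c12) at 150 mg. Cyp2c12 gave 0.17, 0.20, 0.28 and 0.30 on the 4 arrays, above vehicle on each, yet its adjusted p was 0.728 and 0.428. CYP2D1/5, a probe for 2 debrisoquine hydroxylases, gave 0.16, 0.10, 0.17 and 0.17 (adjusted p 0.275 and 0.13). Cyp2d2 was close by, with 0.14, 0.13, 0.15 and 0.18. Cyp1b1, Cyp2c11, Cyp2c13 and the flavin monooxygenase Fmo5 lay between -0.14 and 0.14 on every array.

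**Figure D2:**
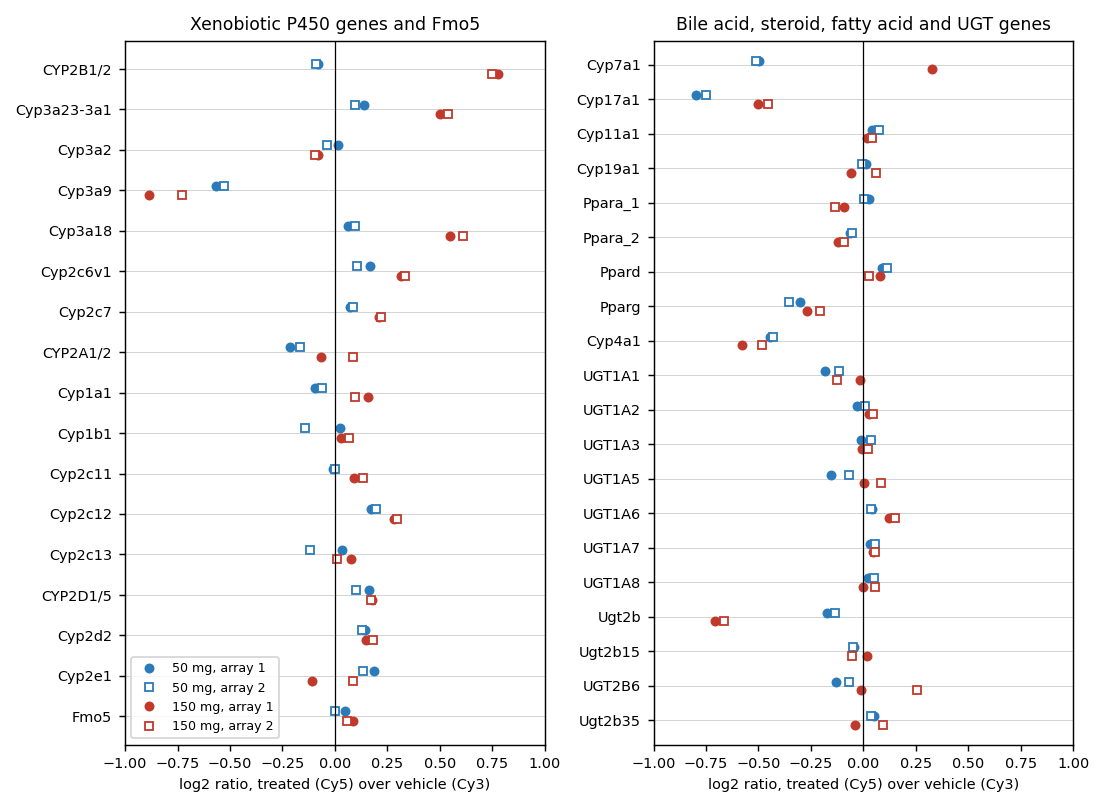
Log2 ratio of treated over vehicle (horizontal axis) for each measured probe of the P450, flavin oxidase and UGT lists, grouped by list, with a point for each array and a colour for each dose. CYP2B1/2, Cyp3a18 and Cyp3a23-3a1 separate to the right at 150 mg, Ugt2b and Cyp3a9 to the left, and most UGT probes cluster near 0.

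Of 4 measured genes in the list of bile acid and steroid P450 enzymes, 2 were called lower at 50 mg and 1 at 150 mg. Cyp7a1, the first and limiting step from cholesterol to bile acids, gave -0.50 and -0.51 at 50 mg, with intensities of 1131 and 1111 for treated against 1597 and 1584 for vehicle RNA. On 150 mg array 1 it gave 0.33, and 150 mg array 2 had no value because all 4 of its spots were marked uneven. The ratio at 50 mg was a fall by 0.50 (1.42-fold, SE 0.0858, adjusted p 0.000519), which held without either array. At 150 mg the single array gave adjusted p 0.13. With the uneven spots kept, the 4 arrays gave -0.54, -0.51, 0.35 and 0.48 and the 150 mg level passed the test (log2 0.41, adjusted p 0.00316). The deposited table, which holds the authors' own log2 ratios, gave -0.34, -0.33, 0.38 and 0.44.

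Cyp17a1, the 17-hydroxylase and lyase of androgen synthesis, gave -0.80 and -0.75 at 50 mg and -0.50 and -0.45 at 150 mg. All 4 arrays were below vehicle, and those of 50 mg were the lower, an order found for 28.3% of the genes measured on all 4. For Cyp17a1 the mean log2 ratio was also below 0 in 10 of the 13 other groups, whose mean was -0.272. It was -0.558 in day-20 maternal liver with retinoic acid. The level fell by 0.77 at 50 mg (1.71-fold, SE 0.0976, adjusted p 1.40e-05) and by 0.48 at 150 mg (1.39-fold, SE 0.0976, adjusted p 0.00295). The first call held without either array, and the second was lost without 150 mg array 1 (adjusted p 0.112) or array 2 (0.0654). Cyp11a1, which starts steroid synthesis, and Cyp19a1, the aromatase, lay between -0.06 and 0.07 on every array. Probes of adrenal steroid synthesis outside the list, CYP11B1/2 and CYP21A2, were not called at either dose (adjusted p 0.967 and 0.845 at 50 mg, 0.595 and 0.76 at 150 mg).

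Of 5 probes for PPAR receptors and fatty acid hydroxylases, 1 was called lower at each dose. It was Cyp4a1, the fatty acid omega-hydroxylase that PPAR alpha controls, with -0.45 and -0.43 at 50 mg and -0.58 and -0.48 at 150 mg. All arrays were below vehicle, and the arrays of the doses lay close together. The mean log2 ratio of this gene was also below 0 in 10 of the 13 other groups. In day-20 maternal liver with retinoic acid it was -0.824. Cyp4a1 fell by 0.44 (SE 0.0942, adjusted p 0.00356) and by 0.53 (SE 0.0942, adjusted p 0.000885). The 50 mg call was lost without either 50 mg array (adjusted p 0.144 and 0.0935) and with the header date as a block (0.0799), and the 150 mg call without 150 mg array 1 (0.0756). The receptor itself, on 2 Ppara probes, lay between -0.13 and 0.03 on the 4 arrays, and Ppard between 0.03 and 0.11. Pparg gave -0.30, -0.35, -0.27 and -0.21 without passing the test (adjusted p 0.358 and 0.595).

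Of the 11 measured probes in the UGT list, limma called 0 at 50 mg (2 at an unadjusted p under 0.05) and 1 at 150 mg, with medians of -0.01 and 0.03. The probe called was Ugt2b, spotted as UGT2B2, a glucuronosyltransferase of steroids, at -0.17 and -0.13 at 50 mg and -0.71 and -0.66 at 150 mg. Vehicle intensities were 2768, 2971, 3327 and 2075 on the 4 arrays, and treated intensities 2455, 2706, 2035 and 1311. The 150 mg arrays lay far below those of 50 mg, an order found for 30.5% of the genes measured on all 4. Ugt2b fell by 0.69 at 150 mg (1.61-fold, SE 0.0539, adjusted p 3.61e-08), which held without either array, and by 0.15 at 50 mg (adjusted p 0.0945). Members of the UGT2B family are alike in sequence, and how far relatives of the gene add to this signal was not tested. The other UGT2B probes of the list did not pass: Ugt2b15 lay between -0.06 and 0.02, Ugt2b35 between -0.04 and 0.09, and UGT2B6 gave 0.26 on 150 mg array 2 against -0.13, -0.07 and -0.01. The 7 UGT1A probes of the list, for first exons of the locus that conjugates bilirubin and phenols, ranged from -0.18 to 0.15, with UGT1A1, the bilirubin enzyme, at -0.18, -0.12, -0.01 and -0.12. Both UGT probes outside the list, UGT1A4 and Ugt2b7, lay between -0.09 and 0.06 and were not called. Of 5 sulfo- and acetyltransferase probes, limma called 0 at either dose, also at an unadjusted p under 0.05, with Nat1 highest at 0.12 and 0.21 on the 150 mg arrays.

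Of 7 hepatocyte transcription factors and plasma proteins, 2 were called lower at 50 mg (6.3% of all genes called lower). At 150 mg, 1 was called lower (5.44% of all genes called lower). Foxa3, a forkhead factor of liver genes, gave -0.46 and -0.45 at 50 mg and -0.28 and -0.21 at 150 mg. Its fall by 0.46 at 50 mg passed the test (SE 0.114, adjusted p 0.011) but was lost without either array (adjusted p 0.222 and 0.138), and 150 mg had adjusted p 0.265. Foxa1 and Foxa2, of the same family, did not pass, with Foxa2 above vehicle at 0.08, 0.10, 0.21 and 0.24. Hnf4a, which drives many hepatocyte genes, gave -0.21, -0.23, -0.35 and -0.28 with adjusted p 0.72 and 0.438.

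Serpina1, the plasma protease inhibitor alpha-1-antitrypsin, gave -0.39 and -0.36 at 50 mg and -0.47 and -0.34 at 150 mg. Its falls by 0.37 (adjusted p 0.0258) and by 0.40 (adjusted p 0.0263) were lost without either array of the dose (adjusted p 0.354 and 0.222 at 50 mg, 0.418 and 0.147 at 150 mg). Over the 13 other groups its mean log2 ratio was -0.455, with embryo bone at -2.79 and -3.07, and with that mean subtracted the values became 0.08 and 0.05, so the direction reversed.

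The labelled tissue was checked against cell markers. Of 10 measured hepatocyte markers, 9 were above background on all 4 arrays, and Cyp7a1 on the 3 arrays where it had usable spots. All 10 had a vehicle intensity above that of embryo bone. Their summed level changed by -0.06 to -0.04 (log2) at 50 mg and by -0.05 to -0.01 at 150 mg, while 4 of the 10 were called lower at 50 mg, and 1 higher and 2 lower at 150 mg. Over all genes, 6.3% were called lower at 50 mg, and 2.51% higher and 5.44% lower at 150 mg. The sum adds intensities, so bright markers weigh most: Cyp2c7 (median vehicle log2 14.45), Cyp2e1 (13.68) and Serpina1 (13.68). Dim markers such as Cyp3a18 (7.63) add little to it. In bulk RNA, fewer cells of a type and less RNA per cell cannot be told apart. Markers of stellate cells or fibroblasts (6 measured), endothelial cells (5), Kupffer cells or other leukocytes (3), cholangiocytes (2) and dividing cells (1) had 0 limma calls at either dose, while at an unadjusted p under 0.05 there were 2 among stellate cell or fibroblast markers at 50 mg and 1 among endothelial markers at 150 mg. All were above background on each array, and summed levels of these lists moved by -0.12 to 0.24 on the 4 arrays, with the sum of the cholangiocyte markers at 0.19 to 0.20 at 50 mg and 0.10 to 0.22 at 150 mg. Of these, Cdh1 was above vehicle (0.21 and 0.18) and Spp1 below it (-0.10 and -0.07), neither passing the test. Their part in the changes above was not tested.

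Of 5 retinoid receptor and binding genes, 1 was called higher at 50 mg (3.78% of all genes called higher). At 150 mg, 1 was called lower (5.44% of all genes called lower). Rarg, a nuclear receptor of retinoic acid, gave -0.14 and -0.10 at 50 mg and -0.30 and -0.21 at 150 mg. It fell by 0.25 at 150 mg (SE 0.0585, adjusted p 0.0068), a call lost without either array (adjusted p 0.298 and 0.0654). Rarb, the retinoid receptor whose own gene retinoic acid induces, gave 0.19 and 0.27 at 50 mg and 0.07 and 0.23 at 150 mg. Its rise by 0.23 at 50 mg (adjusted p 0.0334) was lost without either array (adjusted p 0.222 and 0.538). Rxra, the shared partner of nuclear receptors, gave 0.00 and 0.01 at 50 mg and -0.23 and -0.29 at 150 mg without passing (adjusted p 0.107). Rara and Crabp2, a cellular carrier of retinoic acid, did not pass either.

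Of 11 heat shock and endoplasmic reticulum stress probes, 1 was called higher and 2 lower at 50 mg (3.78% and 6.3% of all genes). At 150 mg, 1 was called lower (5.44% of all genes called lower). Hyou1, a chaperone of the endoplasmic reticulum induced by low oxygen, gave 0.35 and 0.32 at 50 mg and 0.10 and 0.02 at 150 mg. It rose by 0.33 at 50 mg (SE 0.0804, adjusted p 0.00777), a call lost without either array (adjusted p 0.222 and 0.108). Gadd45a, a growth arrest gene induced by DNA damage, lay at -0.24, -0.20, -0.16 and -0.21, a fall by 0.22 at 50 mg (adjusted p 0.0122) and by 0.18 at 150 mg (adjusted p 0.0499). Atf4, a transcription factor of the stress response, gave -0.20, -0.16, -0.14 and -0.13, with a fall by 0.18 at 50 mg (adjusted p 0.0258). Gadd45a and Atf4 lost every such call without either array of the dose, with adjusted p from 0.138 (Gadd45a at 50 mg) to 0.607 (Gadd45a at 150 mg). HSP70.1, the probe of the inducible heat shock protein 70, gave -0.65, -0.57, -0.44 and -0.40, all below vehicle, and did not pass, with SE 0.381 in the fit over all groups (adjusted p 0.448 and 0.702).

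Of 10 TGF-beta and BMP genes, 1 was called higher and 1 lower at 50 mg (3.78% and 6.3% of all genes). At 150 mg, 1 was called lower (5.44% of all genes called lower). Tgfb1, the cytokine of fibrosis and wound repair, gave 0.34 and 0.30 at 50 mg and -0.06 and -0.04 at 150 mg. It rose by 0.32 at 50 mg (1.24-fold, SE 0.0642, adjusted p 0.00212), a call lost without 50 mg array 1 (adjusted p 0.144). Bmp7, a bone morphogenetic protein that opposes TGF-beta in several tissues, gave -0.29 and -0.30 at 50 mg and -0.18 and -0.21 at 150 mg. It fell by 0.29 at 50 mg (SE 0.0415, adjusted p 3.36e-05) and by 0.20 at 150 mg (SE 0.0415, adjusted p 0.00295). The first held without either array, while the second was lost without either (adjusted p 0.0714 and 0.147). Tgfbr2, a receptor for TGF-beta, gave 0.26, 0.22, 0.26 and 0.11 without passing (adjusted p 0.357 and 0.551).

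Of 18 growth factors and receptors, 1 was called higher and 2 lower at 50 mg (3.78% and 6.3% of all genes). At 150 mg, 1 was called higher and 1 lower (2.51% and 5.44% of all genes). Pdgfa, a growth factor for mesenchymal cells, gave -0.38 and -0.29 at 50 mg and 0.08 and 0.02 at 150 mg. Hgf, the hepatocyte growth factor, gave -0.32, -0.26, -0.30 and -0.12, and Egfr, the receptor of epidermal growth factor, gave 0.22, 0.21, 0.23 and 0.18. Pdgfa fell by 0.34 at 50 mg (SE 0.0711, adjusted p 0.00255), a call lost without 50 mg array 1 (adjusted p 0.216). Hgf fell by 0.29 at 50 mg (adjusted p 0.00226), a call lost without 50 mg array 1 (adjusted p 0.154). At 150 mg it fell by 0.21 (adjusted p 0.0331), a call lost without either array (adjusted p 0.904 and 0.0654). Egfr rose by 0.22 (adjusted p 0.0142) and by 0.21 (adjusted p 0.0301), each lost without either array of the dose (adjusted p 0.246 and 0.19, 0.418 and 0.228). Igf1, insulin-like growth factor 1, had no value on 50 mg array 1 and gave 0.39, 0.07 and 0.41 on the other arrays.

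Of 16 probes for basement membrane collagens and laminins, 2 were called higher at 50 mg (3.78% of all genes called higher). At 150 mg, 1 was called higher and 2 lower (2.51% and 5.44% of all genes). Col4a1 and Col4a2, the chains of the main basement membrane collagen, gave 0.23 and 0.23, and 0.19 and 0.19, at 50 mg (adjusted p 0.00356 and 0.0142). At 150 mg they gave 0.07 and 0.15, and 0.04 and 0.05, without passing. Col18a1, the source of endostatin, was measured by 2 probes that gave -0.14 and -0.22, and -0.25 and -0.27, at 150 mg (adjusted p 0.0263 and 0.0302). Lama3, a laminin chain of epithelial anchors, gave -0.14 and -0.12 at 50 mg and 0.17 and 0.34 at 150 mg (log2 0.25, adjusted p 0.049). Each of these calls was lost without either array of the dose, with adjusted p from 0.103 (Col4a1) to 0.842 (Lama3).

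Fibrillar collagen and interstitial matrix genes (9 measured) and matrix proteases and their inhibitors (13 measured) had 0 limma calls at either dose. At an unadjusted p under 0.05 there were 2 and 1 at 50 mg, and 0 and 2 at 150 mg. Dcn, the proteoglycan decorin, had the lowest values of the former at -0.61, -0.52, -0.41 and -0.36 (adjusted p 0.121 and 0.38). Mmp10, a stromelysin, gave -0.43 on 150 mg array 2 and -0.10 to -0.01 on the other arrays.

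Of 6 cytoskeleton and reference genes, 2 were called higher at 50 mg and 1 at 150 mg. Actb, beta-actin, gave 0.38 and 0.40 at 50 mg and 0.16 and 0.19 at 150 mg, and the alpha-tubulin probe TUBA gave 0.21, 0.22, 0.08 and 0.13. Actb rose by 0.39 at 50 mg (1.31-fold, SE 0.0414, adjusted p 6.43e-07), which held without either array, and by 0.17 at 150 mg (1.13-fold, SE 0.0414, adjusted p 0.00817), which was lost without either (adjusted p 0.112 and 0.228). TUBA rose by 0.21 at 50 mg (adjusted p 0.0162), a call lost without either array (adjusted p 0.222 and 0.227). Gapdh, a glycolytic enzyme often used for scaling, lay between -0.05 and 0.10 on the 4 arrays. Of 5 AP-1 and cell cycle genes, limma called 0 at either dose (1 at each at an unadjusted p under 0.05). Junb gave -0.10, -0.10, -0.31 and -0.22, and Top2a, a marker of dividing cells, gave 0.24, 0.21, 0.10 and -0.05.

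Genes called outside these lists were few. Lrp1, a scavenger and lipoprotein receptor of hepatocytes, rose by 0.25 at 50 mg (adjusted p 0.00192), while Ccn2, a matrix protein induced by TGF-beta, fell by 0.26 (adjusted p 0.011). Carhsp1, an RNA-binding phosphoprotein, fell by 0.24 and Mfap1, a splicing protein, by 0.18 (both adjusted p 0.0122). At 150 mg Atf6b, a relative of the endoplasmic reticulum stress factor Atf6, fell by 0.19 (adjusted p 0.0456). Fen1, a flap endonuclease of DNA replication, fell by 0.18 at 50 mg (adjusted p 0.0258) and by 0.21 at 150 mg (adjusted p 0.0111). Each of these calls was lost without either array of its dose, with adjusted p from 0.0722 (Lrp1) to 0.798 (Fen1 at 50 mg).

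Setting the doses against each other, 6 of 238 genes differed (2.52%), 3 higher (1.26%) and 3 lower (1.26%) at 150 mg. The genes higher at 150 mg were Cyp7a1 by 0.83 (SE 0.149, adjusted p 0.00195), CYP2B1/2 by 0.85 (SE 0.174, adjusted p 0.00966) and Pdgfa by 0.39 (SE 0.101, adjusted p 0.0397). Those lower at 150 mg were Ugt2b at -0.53 (SE 0.0762, adjusted p 0.000344), Tgfb1 at -0.36 (SE 0.0907, adjusted p 0.0334) and Actb at -0.22 (SE 0.0586, adjusted p 0.046). Cyp7a1, Pdgfa and Tgfb1 passed the test against vehicle at 50 mg and lay on the other side of 0, without passing it, at 150 mg.

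Ugt2b passed this test without each of the 4 arrays in turn. Cyp7a1 passed without 3 of them and had no value without 150 mg array 1, and with the uneven spots kept its difference was 0.94 (adjusted p 2.63e-05). CYP2B1/2, Tgfb1, Pdgfa and Actb lost the call without any of the 4 arrays, with adjusted p from 0.0878 (CYP2B1/2) to 0.404 (Pdgfa and Actb). Several genes of the same kind missed the threshold, with intervals that leave room for a difference: Cyp3a18 at 0.50 (95% interval 0.22 to 0.78, adjusted p 0.0572), Cyp3a23-3a1 at 0.40 (0.08 to 0.72, adjusted p 0.379) and Cyp3a9 at -0.26 (-0.56 to 0.04, adjusted p 0.999). Lama3 differed by 0.38 (adjusted p 0.0647).

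**Figure D3:**
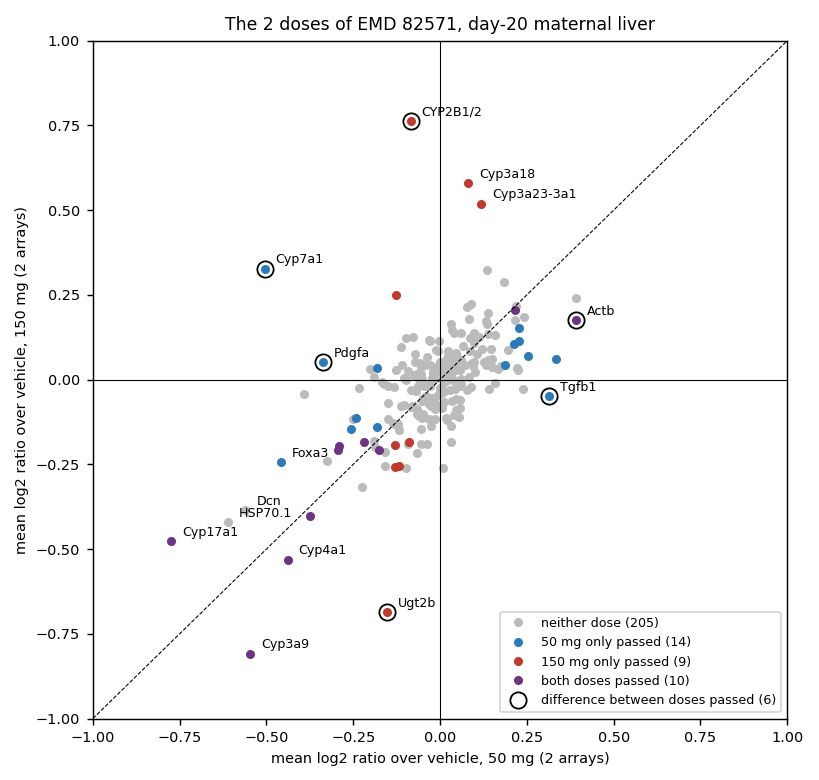
Mean log2 ratio of treated over vehicle at 150 mg (vertical axis) against 50 mg (horizontal axis), with a point for each gene and the genes that differ between doses named; the diagonal marks equal ratios. CYP2B1/2, Cyp7a1 and Pdgfa lie above the diagonal, and Ugt2b, Tgfb1 and Actb below it.

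The day-12 maternal livers received the same 2 doses, and 31 of 231 genes (13.4%) differed between days at 50 mg, 13 higher (5.63%) and 18 lower (7.79%) on day 20. At 150 mg 30 of 232 differed (12.9%), 10 higher (4.31%) and 20 lower (8.62%). Day-12 arrays belong to another array set, so set and day cannot be told apart. CYP2B1/2 gave log2 ratios of 2.02 and 2.20 on the day-12 arrays of 50 mg and 5.16 and 5.37 on those of 150 mg. Against these, its day-20 ratio was lower by log2 units of -2.19 at 50 mg (adjusted p 1.44e-08) and -4.51 at 150 mg (adjusted p 1.65e-13). Cyp3a23-3a1 gave 1.76 and 1.76 on day 12 at 50 mg and 2.87 and 2.96 at 150 mg, with day-20 differences of -1.64 (adjusted p 2.73e-08) and -2.39 (adjusted p 2.91e-11). Both genes were far less elevated over vehicle on day 20 than on day 12. Cyp3a18 gave 0.51 and 0.44 on day 12 at 50 mg and 0.71 and 0.79 at 150 mg. Its day-20 differences of -0.40 at 50 mg (95% interval -0.68 to -0.12, adjusted p 0.059) and -0.17 at 150 mg (-0.45 to 0.11, adjusted p 0.538) did not pass.

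Ugt2b was above vehicle on day 12 at 50 mg, at 1.32 and 1.21, and below it on day 12 at 150 mg, at -0.24 and -0.24. Its day-20 ratio was lower at each dose, with differences of -1.42 (adjusted p 5.24e-11) and -0.45 (adjusted p 0.00041). UGT1A1, which did not pass on day 20, gave 0.86 and 0.86 on day 12 at 150 mg, a difference of -0.93 (adjusted p 3.59e-07). Cyp7a1 was above vehicle on day 12 at 50 mg (0.49 and 0.45) and below it on day 20, a difference of -0.98 (adjusted p 4.39e-06). Cyp17a1 lay at 0.09 and 0.06 on day 12 at 50 mg and at -0.05 and -0.06 at 150 mg, with day-20 differences of -0.85 (adjusted p 0.000114) and -0.42 (adjusted p 0.0462). Without any of the 4 arrays the latter call was lost.

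**Figure D4:**
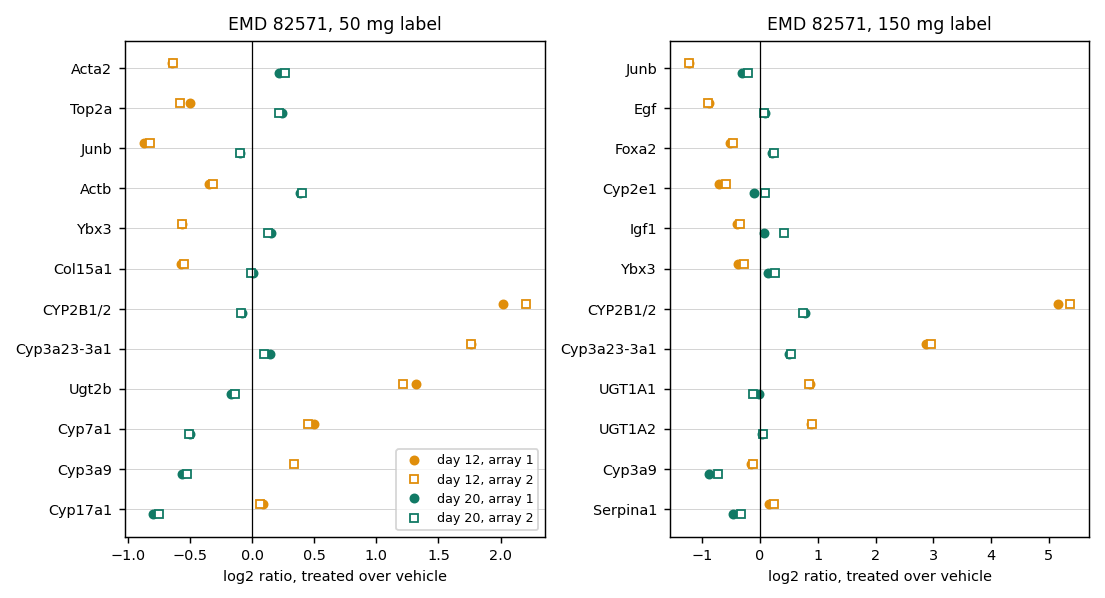
Log2 ratio of treated over vehicle (horizontal axis) on each maternal liver array of days 12 and 20, for genes named in the day comparison. The panels show 50 and 150 mg, with a point for each array and a colour for each day. CYP2B1/2 reaches 5.16 and 5.37 on day 12 at 150 mg and 0.78 and 0.75 on day 20.

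Other genes were lower against vehicle on day 12 than on day 20. Actb gave -0.35 and -0.32 on day 12 at 50 mg, a day-20 difference of 0.72 (adjusted p 2.07e-09). Egf, the ligand of Egfr, gave -0.89 and -0.90 on day 12 at 150 mg and 0.09 and 0.07 on day 20, a difference of 0.97 (adjusted p 1.66e-11). Junb, an AP-1 subunit, gave -1.23 and -1.23 on day 12 at 150 mg and differed by 0.97 (adjusted p 0.00219). Bmp7 went the other way, above vehicle on day 12 (0.10 and 0.10 at 50 mg, 0.16 and 0.15 at 150 mg) and below it on day 20, with differences of -0.39 (adjusted p 3.17e-05) and -0.35 (adjusted p 0.000163). From the deposited log2 ratios, Actb (0.61, adjusted p 0.119), Cyp17a1 (-0.53, adjusted p 0.136) and Bmp7 lost the call between days at 50 mg, and Junb (0.60, adjusted p 0.134), Ugt2b, Cyp17a1 and Bmp7 lost it at 150 mg.

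Retinoic acid was given to a further group of day-20 mothers, whose 2 arrays belong to yet another array set, so set and compound cannot be told apart. Of 229 genes, 18 differed between 150 mg of EMD 82571 and retinoic acid (7.86%), 9 higher (3.93%) and 9 lower (3.93%) with EMD 82571. The labels and the protocol text disagree on the dose of retinoic acid, so none is given. Cyp7a1 gave -1.27 and -1.26 with retinoic acid against 0.33 on the single usable array of 150 mg, a difference of 1.59 (adjusted p 1.29e-07) that has no value without that array. Lama3 gave -0.89 and -0.83 with retinoic acid, a difference of 1.11 (adjusted p 1.29e-07), and Fmo5 gave -0.66 and -0.81, a difference of 0.80 (adjusted p 0.000306). These values were below vehicle with retinoic acid, whereas Lama3 and Fmo5 were at 0.06 to 0.34 with 150 mg of EMD 82571. At 50 mg the mean of Lama3 was also below vehicle, at -0.128. In the deposited log2 ratios Fmo5 gave -0.09 and -0.06 on the 150 mg arrays.

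Genes lower with EMD 82571 than with retinoic acid included Ugt2b, at -0.19 and -0.26 with retinoic acid and a difference of -0.46 (adjusted p 0.000476). Serpina1 gave 0.25 and 0.25 with retinoic acid, a difference of -0.65 (adjusted p 0.00808). Pdgfa gave 0.53 and 0.57, a difference of -0.50 (adjusted p 0.00184), and Atf4 0.25 and 0.21, a difference of -0.37 (adjusted p 0.00196). Junb differed by -0.73 (adjusted p 0.0267) and Ppard by -0.58 (adjusted p 0.0315). Serpina1 lost this call without 150 mg array 1 (adjusted p 0.129) and without retinoic acid array 1 (0.0547). Junb and Ppard lost it without any of the 4 arrays, with adjusted p from 0.0919 (Junb) to 0.229 (Junb). From the deposited log2 ratios, Cyp7a1 and Lama3 kept the call against retinoic acid. Differences there shrank to -0.02 for Serpina1 (adjusted p 0.979), -0.10 for Pdgfa (0.685), -0.12 for Atf4 (0.785), -0.11 for Ppard (0.776) and -0.44 for Junb (0.41), and those of 0.81 for Fmo5 (0.0774) and -0.59 for Ugt2b (0.26) did not pass either. CYP2B1/2, Cyp3a18 and Lama1 were not above background in the treated channel of either retinoic acid array, and Col4a3 in that of 1 of the 2, so no difference is given for them. Cyp17a1 gave -0.59 and -0.53 with retinoic acid and -0.50 and -0.45 with 150 mg of EMD 82571, a difference of 0.08 (95% interval -0.21 to 0.37, adjusted p 0.816). Bmp7 gave -0.17 and -0.21 with retinoic acid and -0.18 and -0.21 with EMD 82571 (difference -0.01, 95% interval -0.13 to 0.11, adjusted p 0.923).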

How the data were processed

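The 4 arrays, 2 per dose, are those whose labels name maternal liver, day 20 and EMD 82571. Deposited spot files, 1 per channel of an array, hold spot and background intensity, per the file headers quantified from scanned images. The deposited table of the series holds the authors' log2 ratios, whose centring is not stated, and the normalization used by the authors is not given in the sources used here.

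Intensities were corrected with normexp (offset 50, limma 3.58.1, R 4.3.3), and log2 ratios of Cy5 over Cy3 were normalized within arrays by loess. Marked spots were left out and the other gene spots averaged per probe. Over all spots of the 4 arrays, control spots included, 332 were marked dim and 83 uneven. A probe counted as above background where a share of at least 0.5 of its spots exceeded the background by 2 SD, and was tested if this held in either channel of 2 or more arrays. A joint limma fit over all 34 arrays gave each of 15 groups its own mean. Tests were two-sided, Benjamini-Hochberg adjusted within each contrast, at a threshold of 0.05.

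The members, lists and rules were chosen with earlier results of these data known. Genes were named if called in a dose or between doses, if in the P450 or UGT lists, if among the 4 smallest p-values of another list, or if among the 6 highest and 6 lowest of the other contrasts. Added after their values were seen were Gapdh, Foxa1, Crabp2, Cdh1 and HSP70.1 in lists, UGT1A4, Ugt2b7, CYP11B1/2 and CYP21A2 outside the lists, Bmp7 and Cyp3a18 between days, Ugt2b, Cyp17a1 and Bmp7 between days at 150 mg, and Cyp17a1 and Bmp7 against retinoic acid. The values of Cyp3a9, Cyp4a1 and Cyp17a1 in the other groups were also added after they were seen. On simulated data for 150 mg against vehicle over 239 genes, 30 of 30 changes of log2 1 and 30 of 30 of 0.5 were called (median estimates 0.809 and 0.393), as were 2 of 179 unchanged genes. In the measured data, genes with estimates near this size did not all pass. Dcn, at -0.56 at 50 mg and -0.38 at 150 mg, was called at neither dose. The simulated share of calls therefore does not hold for every gene. Alternatives changed background correction, centring, filter, arrays in the fit, source of values, uneven spots, dye effect, header date as a block and arrays left out. Medians over spots and pixels and a restriction to genes measured on every array were chosen after seeing the data. Precision is limited by the number of arrays.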

Additional observations from a re-analysis of the deposited data

Results flagged for a closer look

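Several genes named in the comparison of days differed between day 20 and day 12 by the limma test of the difference itself, and are listed for that reason. Array set and day cannot be told apart in any of them. At 50 mg the log2 ratio over vehicle was higher on day 20 for Acta2 by 0.883, Top2a by 0.764, Junb by 0.749, Actb by 0.725, Ybx3 by 0.704 and Col15a1 by 0.563. It was lower on day 20 for CYP2B1/2 (-2.19), Cyp3a23-3a1 (-1.64), Ugt2b (-1.42), Cyp7a1 (-0.976), Cyp3a9 (-0.881, with 1 day-12 array) and Cyp17a1 (-0.848). Acta2, alpha-smooth muscle actin, and Top2a, a topoisomerase of dividing cells, were below vehicle on day 12. Junb and Col15a1 lost the call without any of the 4 arrays (adjusted p from 0.0632 to 0.191), and Cyp3a9 has no value without its single day-12 array.

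At 150 mg it was higher on day 20 for Junb by 0.972, Egf by 0.97, Foxa2 by 0.714, Cyp2e1 by 0.64, Igf1 by 0.613 and Ybx3 by 0.521. It was lower for CYP2B1/2 (-4.51), Cyp3a23-3a1 (-2.39), UGT1A1 (-0.928), UGT1A2 (-0.851), Cyp3a9 (-0.664) and Serpina1 (-0.598). Cyp2e1 lost the call without any of the 4 arrays (adjusted p from 0.0847 to 0.24), Igf1 (0.0506 and 0.129) and Ybx3 (0.101 and 0.093) without day-12 array 1 or day-20 array 2, Serpina1 (0.101 and 0.126) without day-12 array 2 or day-20 array 1, and Cyp3a9 (0.0538) without day-20 array 1.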

How the results depend on the processing

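Counts of called genes moved as follows, and the cause of each move was not tested unless fewer genes or arrays entered by construction. With only the arrays of the groups compared, 105 genes were called at 50 mg, 82 at 150 mg, 36 between doses, 120 and 92 between days (50 and 150 mg) and 45 against retinoic acid. With only the maternal liver arrays the counts were 47, 41, 47 and 55 between days, and 33 against retinoic acid. On the deposited table they were 0 at 50 mg (23 at an unadjusted limma p under 0.05), 6 at 150 mg, 1 between doses, 9 and 17 between days and 3 against retinoic acid. With a random block for the date in the file headers (correlation 0.409) they were 6 at each dose, 13 between days at 150 mg and 10 against retinoic acid, and the 9 called between doses were within 1.5 times of 6. Median centring called 16 higher and 8 lower at 50 mg, against 9 and 15, 12 in all at 150 mg (4 higher and 8 lower), and 3 between doses, as did medians over spots. Without background subtraction 10 genes differed between doses. Leaving out each array gave 4 to 9 calls at 50 mg, 4 to 5 at 150 mg, 1 to 2 between doses, 23 to 24 and 14 to 18 between days and 8 to 13 against retinoic acid.

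Mfap1 at 50 mg reversed to 0.0189 on the deposited table, Serpina1 reversed to 0.0796 at 50 mg and 0.0517 at 150 mg with the mean of the other groups subtracted, and Col4a3 against retinoic acid reversed to -0.0651 on the deposited table. With that mean subtracted, 19 of 24 genes stayed called at 50 mg and 8 of 17 with a value at 150 mg. For differences between groups this alternative gives no value by construction. Over all named genes and alternatives, 3937 values kept their side of the threshold, 142 passed it, 282 lost it and the 4 above reversed after a call. Of the 3937, 189 changed sign, none of them called in either setting. Treated and vehicle RNA were paired within each array. No further pairing between groups was possible because the labels carry no replicate numbers. Signals near 2 times background limit dim probes such as CYP2B1/2, and 2 arrays per dose limit everything else.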
